A study of Drosophila melanogaster with 8 samples.

Results

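The sites described here are the peaks of SIN3 binding on the Drosophila X chromosome that start within the first 21.9 Mb of the dm3 X sequence, taken separately for the isoforms SIN3 187HA and SIN3 220HA. For SIN3 187HA these were 1588 of the 9011 peaks in the unfiltered list, and 722 of them stood among the 4903 peaks of the filtered list. For SIN3 220HA they were 1629 of 8862 unfiltered peaks and 937 of 5810 filtered peaks. Past the limit lay 9 further X peaks of SIN3 187HA and 11 of SIN3 220HA, which were not used. On either side of it, the last SIN3 187HA peak inside (chrX:21892319-21893612) was 3.05-fold enriched and not filtered in, while the first outside (chrX:21931299-21932016) was 8.35-fold enriched. The SIN3 220HA peaks there were 4.09-fold enriched inside (chrX:21892437-21893577) and 11.1-fold outside (chrX:21931313-21932082).

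The series comprised 8 chromatin samples in 4 groups, each with 2 replicates: the HA immunoprecipitate and the input of S2 cells carrying SIN3 187HA, and the same of S2 cells carrying SIN3 220HA. S2 is a cultured Drosophila cell line of embryonic origin. Both lines were stably transfected with a construct in which the isoform carries an HA tag and the metallothionein promoter drives it, and an antibody against HA precipitated the chromatin. SIN3 187HA was induced with copper and SIN3 220HA was not, since that promoter leaks, so the isoform and the induction cannot be told apart. Peak calling used both replicates of an isoform as a single data set. Each isoform therefore had 1 list, there was no spread between replicates to set a difference against, and no p-value was computed. The intervals are 95% intervals that cover counting error only, and neighbouring peaks of 1 list are not independent replicates.

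SIN3 is the scaffold of a histone deacetylase complex that holds the enzyme RPD3 and is recruited to genes by sequence-specific factors. The isoforms share most of the protein and differ at its C-terminal end. S2 cells are of male origin, and in male flies a dedicated complex raises transcription of the X to balance its lower copy number against the autosomes. Copy number was not measured here.

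Every SIN3 peak is described by its fold enrichment over background as the peak caller gave it, and by its pileup, the number of reads stacked at the summit. From this enrichment and the deposited p-value the pileup and the background were worked out, both in reads. The X was set beside the autosomal arms 2L, 3L and 3R, whose lengths up to their last peak were 22.96, 24.53 and 27.89 Mb, against 21.9 Mb of X. All positions are dm3 coordinates counted from 1. No gene is assigned to a peak.

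The strongest X sites reached the top of the whole list. Both isoforms had their most enriched X peak at the same place. The SIN3 187HA peak at chrX:11709815-11713287 was 30.5-fold enriched with a pileup of 398 reads, and ranked 5 in the whole filtered list. Its SIN3 220HA counterpart at chrX:11709723-11713286 was 42.8-fold enriched with a pileup of 921 reads, and ranked 6. Their summits lay 3 bp apart.

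The order below that site was only in part common to the isoforms. The SIN3 187HA peak next in line, chrX:440212-441073, was 30.2-fold enriched beside 28.0-fold for SIN3 220HA, where it ranked 4 on the X. After it, chrX:8037437-8038075 was 26.8-fold enriched for SIN3 187HA and 23.6-fold for SIN3 220HA. The SIN3 187HA peak at chrX:3597888-3598814 was 25.4-fold enriched and had a SIN3 220HA partner of 10.8-fold that ranked 123 on the X. The last of the 5 highest, chrX:12643299-12648739, was 19.997-fold enriched with a partner of 11.0-fold at rank 117. These last sites were thus nearer the top in the SIN3 187HA list than in the SIN3 220HA list, where they still exceeded the X median.

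The SIN3 220HA list had its own high sites. Next to the peak at chrX:440246-441056 already described, its 5 highest included chrX:17518371-17519505, 18.8-fold enriched for SIN3 187HA and 30.6-fold for SIN3 220HA, with summits 6 bp apart. At chrX:11589066-11590213 the partner was 11.3-fold enriched for SIN3 187HA, against 27.7-fold for SIN3 220HA. The site at chrX:17619737-17621536 stood out: SIN3 187HA had a peak of only 267 bp there, 7.04-fold enriched with 91 reads, against 30.2-fold and 979 reads for SIN3 220HA. That pileup ratio, 0.09, was the lowest of all X pairs. Of the 50 most enriched X peaks of each isoform, 25 met one of the other isoform's 50. No such count was made for the arms, so whether it is particular to the X is not known.

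At the other end of the pileup ratio, SIN3 187HA had more reads than SIN3 220HA. At chrX:9237463-9239242 it had 230 reads against 109 for SIN3 220HA, a ratio of 2.11, and at chrX:1773392-1774598 it had 195 against 93, a ratio of 2.097. The median ratio over X pairs was 0.64 (interval 0.61 to 0.65), so at most X sites the SIN3 220HA pileup was the higher one. The same median was 0.57 on 2L, 0.54 on 3L and 0.55 on 3R. The ratio of the backgrounds in these pairs was also higher on the X, at a median of 0.71 (0.68 to 0.73). It was 0.66 on 2L, 0.62 on 3L and 0.62 on 3R, and the intervals of X and 2L overlapped. Both ratios depend on the depth of each list, and only their order between sites or chromosomes is comparable.

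The next question was how densely the sites lie along the X. In 1 Mb bins counted from the telomere, the 21 full bins held 33.7 ± 10.5 filtered SIN3 187HA peaks and 43.4 ± 14.5 filtered SIN3 220HA peaks (SD over bins). SIN3 187HA counts ran from 18 to 61 with a median of 35, and SIN3 220HA counts from 20 to 70 with a median of 43. The last bin was 0.9 Mb long and held 15 SIN3 187HA and 25 SIN3 220HA peaks, the SIN3 187HA count being under that of any full bin.

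**Figure D1:**
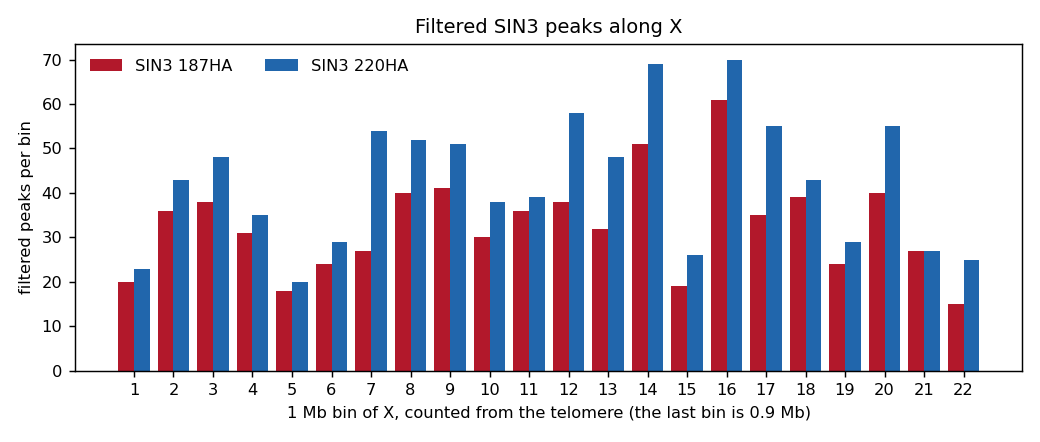
Filtered SIN3 187HA and SIN3 220HA peaks (bars, counts from 0) in each 1 Mb bin of X, numbered from the telomere, the last bin being 0.9 Mb. Bin 16 was the highest for both isoforms, with 61 SIN3 187HA and 70 SIN3 220HA peaks, and bin 5 the lowest of the full bins, with 18 SIN3 187HA and 20 SIN3 220HA peaks.

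The fullest bins were in part the same for both isoforms. Bin 16 was the fullest for both, with 61 filtered SIN3 187HA and 70 filtered SIN3 220HA peaks, and bin 14 followed with 51 of SIN3 187HA and 69 of SIN3 220HA. The next was bin 9 for SIN3 187HA, with 41 peaks, and bin 12 for SIN3 220HA, with 58. Among the full bins the emptiest were the same for both isoforms: bin 5 held 18 SIN3 187HA and 20 SIN3 220HA peaks, bin 15 held 19 SIN3 187HA and 26 SIN3 220HA peaks, and bin 1 held 20 SIN3 187HA and 23 SIN3 220HA peaks. Over the 21 bins, Pearson's r between the isoforms was 0.884 and Spearman's rho 0.834, given as a description since all bins of a list come from the same libraries. Over the bins of 2L, 3L and 3R, r was 0.944, 0.964 and 0.940, each higher than on the X.

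Bin 7 was the place where the isoforms parted most. It held 27 filtered SIN3 187HA peaks against 54 of SIN3 220HA, a ratio of 0.50, and was chosen for that after its values were seen. Without the filter the bin held 84 SIN3 187HA and 98 SIN3 220HA peaks, and at 3-fold enrichment it held 57 of SIN3 187HA and 72 of SIN3 220HA. In bin 21 both isoforms had 27 filtered peaks.

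The X carried fewer filtered sites per Mb than the autosomal arms pooled. For SIN3 187HA it had 33.0 per Mb (interval 30.6 to 35.5), against 38.8 on 2L, 43.9 on 3L and 42.2 on 3R, a ratio of X over the 3 arms of 0.790 (0.728 to 0.857). For SIN3 220HA it had 42.8 per Mb (40.1 to 45.6), against 43.5, 49.8 and 51.1 on the same arms, a ratio of 0.884 (0.822 to 0.951). The SIN3 220HA value of X and that of 2L had overlapping intervals. Filtered peaks covered 34.5 kb per Mb of X for SIN3 187HA and 44.5 kb per Mb for SIN3 220HA.

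No such deficit was detectable before the filter. Unfiltered SIN3 187HA peaks were 72.5 per Mb on X against 70.3, 76.4 and 75.2 on the arms, and unfiltered SIN3 220HA peaks 74.4 against 66.1, 75.2 and 73.8. With a 3-fold threshold alone the X had 52.9 SIN3 187HA peaks per Mb, 1.006 times the 3 arms (0.941 to 1.07), and 54.8 SIN3 220HA peaks per Mb, 1.05 times the arms (0.981 to 1.12).

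**Figure D2:**
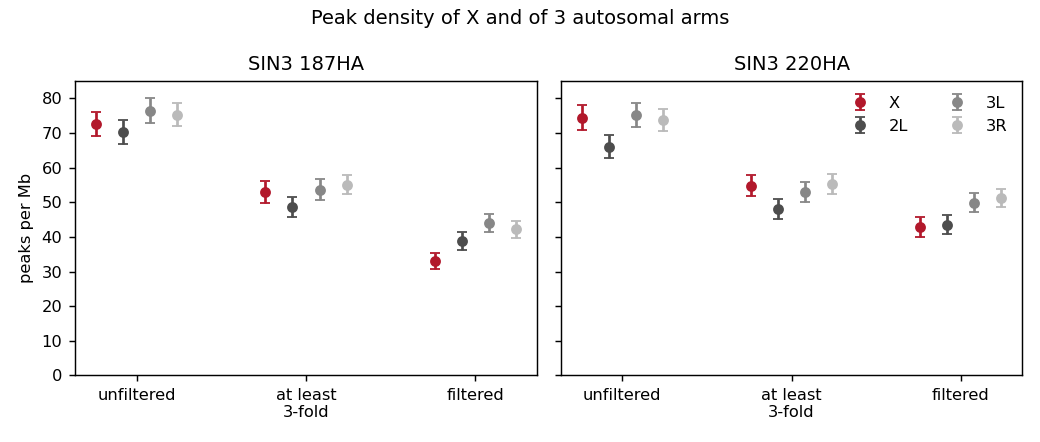
Peaks per Mb on X and on 2L, 3L and 3R for SIN3 187HA and SIN3 220HA, in the unfiltered list, at 3-fold enrichment and in the filtered list, with exact Poisson 95% intervals as bars. X lies among the arms before filtering, at 72.5 per Mb for SIN3 187HA and 74.4 per Mb for SIN3 220HA. It is the lowest of the 4 afterwards, at 33.0 per Mb for SIN3 187HA and 42.8 per Mb for SIN3 220HA, where its interval overlaps that of 2L.

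Seen peak by peak, the filter retained a smaller part of the X sites. Across the genome 54.4% of SIN3 187HA peaks and 65.6% of SIN3 220HA peaks were filtered in. On the X 722 of 1588 SIN3 187HA peaks were, 45.5% (43.0 to 48.0), against 56.3% on the arms, a difference of -10.8 percentage points (-13.6 to -8.04). For SIN3 220HA it was 937 of 1629, 57.5% (55.1 to 59.9), against 67.3%, a difference of -9.77 points (-12.5 to -7.07). Within each list the arms differed less among themselves, from 55.2% to 57.4% for SIN3 187HA and from 65.9% to 69.3% for SIN3 220HA.

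Reaching 3-fold enrichment was not detectably rarer on the X. Genome-wide 71.6% of SIN3 187HA peaks and 73% of SIN3 220HA peaks reached it. On the X 73.0% did for SIN3 187HA and 73.7% for SIN3 220HA, which differed from the arms by 2.02 points for SIN3 187HA (-0.503 to 4.47) and by 0.92 points for SIN3 220HA (-1.57 to 3.32). What separated the X was the step after that. Of its 1159 SIN3 187HA peaks at 3-fold or more, 437 were not filtered in, 37.7% against 20.7% on the arms. Of its 1200 SIN3 220HA peaks, 263 were not, 21.9% against 7.51%. All of these peaks had a -log10 p below the lowest value of any filtered peak, 21.6 in the SIN3 187HA list and 21.9 in the SIN3 220HA list.

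The X peaks lost at this step were short and modest. Their median width was 396 bp for SIN3 187HA and 390 bp for SIN3 220HA, the median enrichment 3.52-fold for SIN3 187HA and 3.41-fold for SIN3 220HA, and the median pileup 49 reads for SIN3 187HA and 59 for SIN3 220HA. A filtered peak of the other isoform lay over 230 of the 437 SIN3 187HA peaks (52.6%, against 54.1% on the arms). The same held for 46 of the 263 SIN3 220HA peaks (17.5%, against 16.9%).

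The loss was confined to the lower classes of enrichment. Between 3-fold and 4-fold, 28 of 379 SIN3 187HA X peaks were filtered in, 7.39%, against 32.4% on the arms, and the median pileup was 48 reads on the X against 70 on the arms. In the same class 77 of 321 SIN3 220HA X peaks were filtered in, 24.0% against 67.0%, with a median pileup of 62 reads on the X against 104 on the arms. Between 4-fold and 6-fold the shares were 77.3% against 94.9% for SIN3 187HA and 95.1% against 99.5% for SIN3 220HA. From 6-fold upwards each X peak and each arm peak of both lists was filtered in.

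At equal fold enrichment an X peak thus rested on fewer reads than an arm peak, as follows from its definition when the background is lower. The median background under unfiltered peaks was 12.4 reads on X against 19.9 on the arms for SIN3 187HA, a ratio of 0.623. For SIN3 220HA it was 18.5 against 30.8, a ratio of 0.602. The median pileup of filtered peaks was 95 reads on X against 131 for SIN3 187HA, and 128 against 210 for SIN3 220HA.

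The most enriched sites were sparser on the X also by thresholds at which the filter removed no peak. At 6-fold or more the X had 18.3 SIN3 187HA peaks per Mb against 20.7 on the arms, a ratio of 0.883 (0.789 to 0.986). For SIN3 220HA it had 22.3 against 26.0 per Mb, a ratio of 0.857 (0.775 to 0.947). At 10-fold or more the ratios were 0.748 for SIN3 187HA (0.593 to 0.936) and 0.663 for SIN3 220HA (0.553 to 0.792). Between 6-fold and 10-fold the ratios were 0.935 (0.822 to 1.06) for SIN3 187HA and 0.982 (0.868 to 1.11) for SIN3 220HA, with intervals that include 1. With filtered peaks of at least 5-fold both ratios were 0.920, and their intervals (0.837 to 1.0105 for SIN3 187HA and 0.843 to 1.004 for SIN3 220HA) also included 1. Between 3-fold and 4-fold they were above 1, at 1.17 (1.04 to 1.31) for SIN3 187HA and 1.26 (1.10 to 1.43) for SIN3 220HA. The 6-fold and 10-fold thresholds and the classes were added after the data were examined.

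That measure has a floor on the X. The peak caller takes whichever is higher, the background around a site or that of the whole genome, so its value cannot fall under the genome-wide figure, which was 12.1 reads in the SIN3 187HA list and 15.2 reads in the SIN3 220HA list. On the X, 752 of 1588 SIN3 187HA peaks lay within 0.5% of that floor (47.4%, interval 44.9 to 49.9), and so did 485 of 1629 SIN3 220HA peaks (29.8%, 27.6 to 32.1). On the arms 3.56% of SIN3 187HA and 2.62% of SIN3 220HA peaks did. For a peak on the floor the fold enrichment is a lower limit of the enrichment over its local background.

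**Figure D3:**
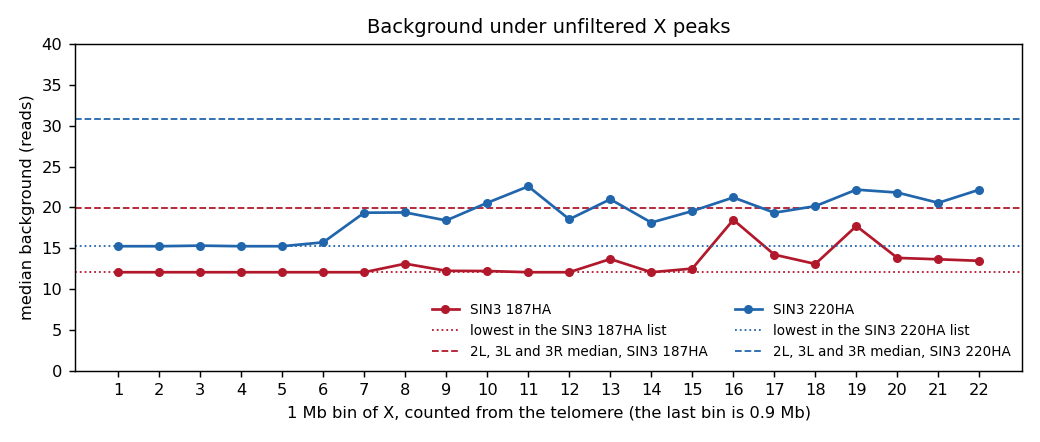
Median background, in reads, under the unfiltered peaks of each 1 Mb bin of X for SIN3 187HA and SIN3 220HA, with the lowest value in each list (dotted) and the median of 2L, 3L and 3R (dashed). SIN3 187HA stays at or near its floor of 12.1 reads over much of the chromosome and SIN3 220HA leaves its floor of 15.2 reads after bin 6, while the arms lie at 19.9 (SIN3 187HA) and 30.8 (SIN3 220HA) reads.

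The background was not even along the X. The median SIN3 187HA background was at the floor in bins 1 to 7 and again in bins 11, 12 and 14. It was highest in bin 16, at 18.5 reads, and in bin 19, at 17.7 reads. The SIN3 220HA median was at or near its floor in bins 1 to 6 and between 18.1 and 22.6 reads from bin 7 on.

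The bins were grouped after these values were seen. In bins 1 to 5, 73.7% of SIN3 187HA and 63.7% of SIN3 220HA peaks were at the floor, and 42.8% of SIN3 187HA and 53.3% of SIN3 220HA peaks were filtered in. In bins 8 to 15, 48.3% of SIN3 187HA and 21.1% of SIN3 220HA peaks were at the floor, and 48.5% of SIN3 187HA and 59.1% of SIN3 220HA peaks were filtered in. In bin 16 the floor held 4.76% of SIN3 187HA and 14.0% of SIN3 220HA peaks, and the filter retained 58.1% of SIN3 187HA (48.1 to 67.7) and 75.3% of SIN3 220HA (65.2 to 83.6). Bins 6 and 7 had 52.9% and 65.5% of SIN3 187HA and 48.2% and 28.6% of SIN3 220HA peaks at the floor. The filter retained 47.1% of SIN3 187HA and 51.8% of SIN3 220HA peaks in bin 6. In bin 7 it retained 32.1% of SIN3 187HA peaks, the lowest share of any bin, and 55.1% of SIN3 220HA peaks. Bins 17 to 22 had 31.5% of SIN3 187HA and 18.8% of SIN3 220HA peaks at the floor, and 42.7% of SIN3 187HA and 55.7% of SIN3 220HA peaks filtered in. Over the 21 full bins the share filtered in and the median background had a Pearson's r of 0.283 in the SIN3 187HA list and 0.251 in the SIN3 220HA list, as a description. Peaks of at least 3-fold were also compared within classes of background. At the floor 50.6% of SIN3 187HA peaks on X were filtered in, against 50.3% on the arms. For SIN3 220HA it was 62.5% against 56.7%. Above the floor the difference of X from the arms ran from -5.98 to 7.46 points for SIN3 187HA. For SIN3 220HA it ran from -2.36 to 6.71 points. Each class with a lower X share had an interval that included no difference. The cause was not tested.

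The distance between neighbouring sites gave a second view of the density. Filtered SIN3 187HA peaks on the X were separated by a median of 7916 bp (interval 6682 to 9461, quartiles 2472 and 27924), against 6013, 5873 and 6237 bp on 2L, 3L and 3R. Filtered SIN3 220HA peaks were separated by 5659 bp (4784 to 6456, quartiles 1829 and 16627), against 4956, 4720 and 4809 bp. Between unfiltered peaks the X median was 2721 bp for SIN3 187HA, within the 2698 to 2930 bp of the arms, and 2694 bp for SIN3 220HA, below the 2721 to 2856 bp of the arms.

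The share of close neighbours on the X did not differ detectably from the arms for either isoform, and at middle distances a difference clear of 0 was found for SIN3 187HA. Distances within 1 kb made up 14.8% on X and 14.5% on the arms for SIN3 187HA, a difference of 0.33 points (-2.39 to 3.36). For SIN3 220HA they made up 16.6% on X and 17.4% on the arms, a difference of -0.84 points (-3.41 to 1.95). Within 5 kb the SIN3 187HA share was 39.1% against 45.1%, a difference of -5.97 points (-9.88 to -1.97), while the SIN3 220HA difference of -3.25 points had an interval that reached 0.34. Within 50 kb the difference was -4.63 points for SIN3 187HA (-7.70 to -1.85) and -1.66 points for SIN3 220HA (-4.05 to 0.49). Within 100 kb the difference was -2.94 points for SIN3 187HA (-5.31 to -0.95) and -1.96 points for SIN3 220HA (-3.84 to -0.38).

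**Figure D4:**
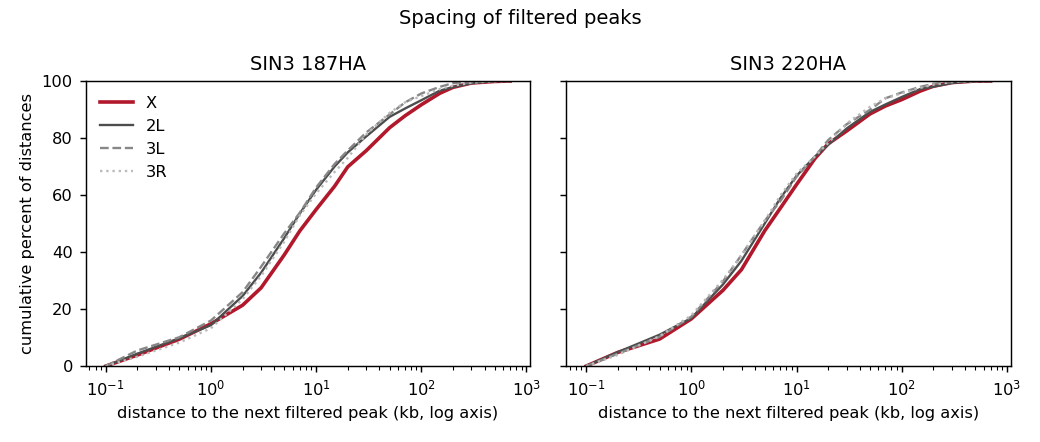
Cumulative percent of distances from each filtered peak to the next (kb, log axis) on X, 2L, 3L and 3R, for SIN3 187HA and SIN3 220HA. The SIN3 187HA curve of X lies among the others at 1 kb and below them at 2 kb (21.4% on X against 23.5% to 25.9% on the arms) and at 5 kb (39.1% against 43.7% to 46.7%), and the SIN3 220HA curve runs closer to the arms.

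Clusters of neighbouring sites were fewer per Mb on the X. A cluster was defined as at least 4 filtered peaks with no gap over 5 kb. SIN3 187HA had 34 such clusters on X, 1.55 per Mb against 2.18, 2.61 and 2.12 on 2L, 3L and 3R, and they held 165 of its 722 peaks, 22.9% (19.8 to 26.1) against 26.8% on the arms. SIN3 220HA had 50, 2.28 per Mb against 3.05, 3.51 and 3.30, holding 270 of 937 peaks, 28.8% (25.9 to 31.8) against 35.0%. The share differed from the arms by -3.91 points (-7.22 to -0.37) for SIN3 187HA and -6.20 points (-9.41 to -2.85) for SIN3 220HA. Fewer peaks per Mb lower the number of clusters by construction, and in the unfiltered lists the difference had the opposite sign, at 2.26 points for SIN3 187HA (-0.52 to 5.02) and 2.64 points for SIN3 220HA (-0.11 to 5.38). With gaps of at most 3 kb it was -1.85 points for SIN3 187HA (-4.07 to 0.72) and -2.17 points for SIN3 220HA (-4.64 to 0.53), so the share in clusters then no longer differed detectably.

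Peaks inside clusters and outside them had similar enrichment. The median was 6.50-fold inside and 6.27-fold outside for SIN3 187HA, and 6.08-fold inside and 6.14-fold outside for SIN3 220HA. Clustered SIN3 187HA peaks had a median width of 981 bp (841 to 1089) inside and 821 bp (746 to 881) outside, with overlapping intervals, and for SIN3 220HA the medians were 835 bp inside and 828 bp outside.

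Most clusters were small. Of the 34 SIN3 187HA clusters, 17 held 4 peaks, 11 held 5, 3 held 6 and 3 held 8. Clusters with 8 peaks lay at chrX:7584769-7604981, chrX:15625752-15643441 and chrX:19040257-19061535, where SIN3 220HA had 6, 6 and 7 filtered peaks. Those with 6 peaks lay at chrX:2536570-2556136, chrX:12547672-12562444 and chrX:12642170-12657928, with 4, 6 and 6 filtered SIN3 220HA peaks.

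The largest gathering of SIN3 sites on the X belonged to SIN3 220HA. At chrX:12612570-12657898, a span of 45329 bp, SIN3 187HA had 13 filtered peaks of 22 unfiltered, and SIN3 220HA had 17 of 24. The SIN3 220HA peaks there had a median enrichment of 4.67-fold and a highest of 12.3-fold, so the cluster was made of many moderate sites. It overlaps the SIN3 187HA cluster of 6 peaks that starts at 12642170 and another of 5 peaks at chrX:12627744-12636593. SIN3 220HA had 4 clusters of 9 peaks, at chrX:6737112-6763407, chrX:7179113-7202393, chrX:8780660-8801721 and chrX:13628866-13651453, in which SIN3 187HA had 5, 2, 5 and 6 filtered peaks.

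Clusters of the isoforms met on the X in 25 of 34 cases counted from SIN3 187HA and in 24 of 50 counted from SIN3 220HA. Meetings of clusters were not counted on the arms. A SIN3 187HA cluster without any filtered SIN3 220HA peak, named here after its values were seen, lay at chrX:1168743-1183683. Its 4 peaks started at 1168743, 1176403, 1179188 and 1182911, were 9.57-fold, 13.1-fold, 8.86-fold and 14.9-fold enriched, and had pileups of 124, 170, 159 and 256 reads. SIN3 220HA had 3 unfiltered peaks there, 3.02-fold, 2.83-fold and 3.20-fold enriched, with pileups of 48, 45 and 51 reads. Elsewhere the SIN3 220HA pileup was usually the higher one, so this stretch ran against the median pair.

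Long stretches without sites took up the same part of the X in both lists. Stretches of at least 150 kb between filtered SIN3 187HA peaks numbered 31 and covered 7.17 Mb, 32.7% of X, against 33.0% of 2L, 20.1% of 3L and 28.3% of 3R. For SIN3 220HA 33 stretches covered 7.16 Mb, also 32.7%, against 31.9%, 23.9% and 27.2%. The X thus resembled 2L more than 3L. Stretches with no filtered peak of either isoform covered 30.3% of X, against 28.9% of 2L, 20.02% of 3L and 24.6% of 3R. Per 10 Mb, X had 14.2 stretches for SIN3 187HA and 15.1 for SIN3 220HA, more than any of the arms, whose highest were 13.1 in the SIN3 187HA list and 12.2 in the SIN3 220HA list.

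The longest SIN3 187HA stretch, chrX:21247012-21857061, was 610050 bp long and held 8 unfiltered SIN3 187HA peaks, while SIN3 220HA had 6 filtered peaks in it. The next, chrX:11923195-12356547 (433353 bp), held 1 unfiltered SIN3 187HA peak and 2 filtered SIN3 220HA peaks, the higher of them 12.5-fold enriched. The other long ones were at chrX:2683866-3056211 (372346 bp), chrX:20530160-20898756 (368597 bp) and chrX:14137142-14476656 (339515 bp). The last of these and the one before it had no filtered SIN3 220HA peak.

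For SIN3 220HA the longest were chrX:2631010-3055982 (424973 bp), in which SIN3 187HA had 2 filtered peaks, chrX:20530052-20898865 (368814 bp) and chrX:21501167-21846301 (345135 bp). They were followed by chrX:14136858-14476660 (339803 bp) and chrX:9673313-9976336 (303024 bp). The stretches starting at 20530052 and 14136858 coincide, apart from their edges, with SIN3 187HA stretches named above, so both isoforms lacked filtered sites there.

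Some of the empty stretches had no peak of any kind. In 5 of those that lacked a filtered peak of either isoform, neither unfiltered list had a peak. They lay at chrX:4597382-4802781, chrX:7004664-7179112, chrX:11050331-11218945, chrX:12804304-12981306 and chrX:13307404-13457634, and were between 150231 and 205400 bp long. The stretch starting at 7004664 ends where the SIN3 220HA cluster at 7179113 begins.

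Filtered X peaks had median widths close to those of the arms, while unfiltered X peaks were narrower. Unfiltered SIN3 187HA peaks had a median width of 481.5 bp (453 to 506) on X and 552 bp (538 to 565) on the arms, and unfiltered SIN3 220HA peaks 551 bp (531 to 574) on X and 637.5 bp (617 to 652) on the arms. Filtered SIN3 187HA peaks had a median width of 851 bp (interval 793 to 905, quartiles 542 and 1363) on X and 822 bp on the arms. Filtered SIN3 220HA peaks had 832 bp (805 to 880, quartiles 570 and 1302) on X and 849 bp on the arms. Peaks over 2000 bp made up 9.003% (65 peaks) of the X sites of SIN3 187HA and 9.50% (89) of those of SIN3 220HA, and peaks of at most 500 bp made up 20.9% of SIN3 187HA (151) and 17.5% of SIN3 220HA sites (164). The median enrichment of filtered peaks was 6.28-fold on X and 5.98-fold on the arms for SIN3 187HA, and 6.11-fold on X and 6.27-fold on the arms for SIN3 220HA, with the floor described above acting mainly on the X values. Over unfiltered peaks, before the removal of weakly enriched X sites, the SIN3 187HA median was 3.98-fold on X and 4.06-fold on the arms, the other direction, and the SIN3 220HA median 4.20-fold on X and 4.55-fold on the arms.

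The widest X peaks differed between the isoforms in width more than in position. The SIN3 187HA peak at chrX:6752058-6757671 was 5614 bp wide and 10.9-fold enriched, against a SIN3 220HA peak of 1465 bp with its summit on the same base. At chrX:12643299-12648739 SIN3 187HA had a peak of 5441 bp, and SIN3 220HA had filtered peaks of 2925 and 1633 bp. The summit of the 2925 bp peak lay 32 bp from that of SIN3 187HA. At chrX:7588163-7592987 SIN3 187HA had a peak of 4825 bp, and SIN3 220HA had filtered peaks of 3712 and 1146 bp. The summit of the 3712 bp peak lay 393 bp from that of SIN3 187HA. The reverse case was chrX:3669370-3673639, where SIN3 220HA had a peak of 4270 bp and SIN3 187HA had several filtered peaks. The most enriched of these SIN3 187HA peaks was 582 bp wide, with its summit 845 bp from that of SIN3 220HA. Another of them had its summit much nearer to the SIN3 220HA summit. Another wide SIN3 220HA peak, chrX:9476567-9480386, had 3820 bp against 3512 bp for SIN3 187HA. A further one, chrX:10695052-10698858, had 3807 bp against 1973 bp for SIN3 187HA.

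To compare the isoforms site by site, filtered peaks that overlapped 1 to 1 were paired, which gave 545 pairs on X and 2484 on the arms. The SIN3 187HA peak was narrower than its partner at the median, with a width ratio of 0.913 (0.891 to 0.932, quartiles 0.74 and 1.04) on X, against 0.917, 0.928 and 0.917 on 2L, 3L and 3R. It was the wider peak in 177 X pairs, 32.5%, a difference of 1.12 points from the arms (-3.11 to 5.54). SIN3 187HA was at least 2 times wider in 7 X pairs, 1.28% against 2.42% on the arms. SIN3 220HA was at least 2 times wider in 46 X pairs, 8.44% against 4.71% on the arms. Widths had a Spearman's rho of 0.78 across X pairs and enrichments 0.64, as a description across sites.

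Summits of the isoforms lay close together. The median distance on X was 21 bp (18 to 24, quartiles 6 and 82), against 17, 19 and 19 bp on 2L, 3L and 3R. Both summits fell on the same base in 21 X pairs, and 425 of 545 lay within 100 bp, 78.0% (74.3 to 81.4). That share differed by -1.81 points from the arms (-5.78 to 1.85), an interval that includes 0.

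**Figure D5:**
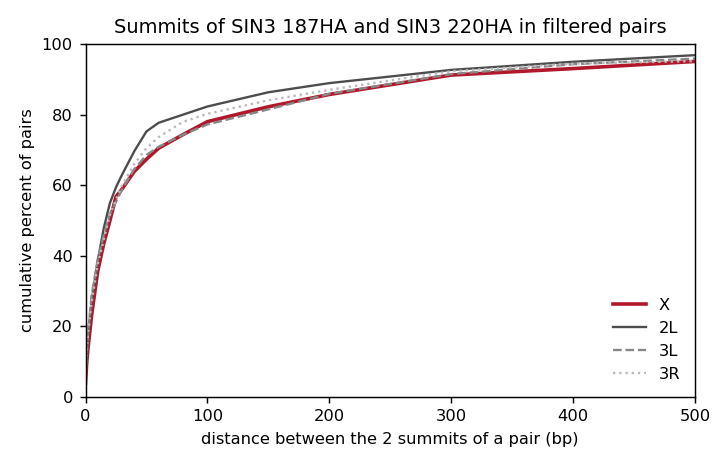
Cumulative percent of filtered pairs by the distance in bp between the SIN3 187HA summit and the SIN3 220HA summit, on X and on 2L, 3L and 3R. By 100 bp the X curve reached 78.0% and by 500 bp 95.05%, with 2L above the other curves at 82.3% by 100 bp.

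Summit distance varied with the strength and width of the pair, on the X as on the arms. Where the weaker peak of a pair was at least 10-fold enriched, 60 of 61 summit pairs were within 100 bp. Between 6-fold and 10-fold it was 173 of 212 (81.6%), between 4-fold and 6-fold 167 of 236 (70.8%), and between 3-fold and 4-fold 25 of 36 (69.4%). From the highest class to the lowest, the arms had 91.3%, 84.1%, 76.4% and 69.6%. By the width of the wider peak, 36 of 39 pairs up to 500 bp and 187 of 220 pairs from 500 to 1000 bp were within 100 bp. From 1000 to 2000 bp it was 150 of 216 (69.4%), and over 2000 bp 52 of 70 (74.3%). From the narrowest class to the widest, the arms had 91.8%, 85.8%, 74.2% and 69.5%. Summits of narrow overlapping peaks cannot lie far apart, so the width classes differ in part by construction.

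The most distant summits were in broad peaks with nearly the same borders. At chrX:7954292-7957756 for SIN3 187HA and chrX:7954048-7957697 for SIN3 220HA, the summits were 2152 bp apart. At chrX:16226500-16229797 and chrX:16226514-16229804 they were 1929 bp apart, and at chrX:16970306-16972309 and chrX:16970583-16972149 they were 1367 bp apart. In these pairs the isoforms had their highest point at opposite parts of a common region.

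Sharing of sites between the isoforms was lower on the X, more clearly for SIN3 220HA. A filtered peak was counted as shared when a filtered peak of the other isoform covered at least 50% of it. Genome-wide 86% of SIN3 187HA peaks and 68% of SIN3 220HA peaks were shared, and on the X 82.8% of SIN3 187HA and 59.6% of SIN3 220HA peaks. The X shares differed from those of 2L, 3L and 3R by -3.32 points for SIN3 187HA (-6.46 to -0.45) and by -10.4 points for SIN3 220HA (-13.9 to -6.98). Against the other isoform's unfiltered list the SIN3 187HA difference was -2.33 points (-5.03 to 0.03), which includes 0. The SIN3 220HA difference was then -6.77 points (-9.80 to -3.92). Among filtered peaks of at least 5-fold the differences were -7.13 points (-10.4 to -4.21) for SIN3 187HA and -12.2 points (-16.2 to -8.47) for SIN3 220HA. The SIN3 220HA difference was found in the middle classes of enrichment. Between 4-fold and 6-fold 41.4% of X peaks were shared against 55.9% on the arms, and between 6-fold and 10-fold 70.3% against 83.3%. At 10-fold or more it was 89.2% against 90.4%.

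Much of the unshared X signal met a weaker peak of the other isoform. Of the filtered X peaks, 73 of SIN3 187HA (10.1%, against 6.99% on the arms) and 242 of SIN3 220HA (25.8%, against 18.6%) met only a peak that the filter had left out. Those that met no peak at all were few. Genome-wide they were 3.67% of SIN3 187HA and 6.18% of SIN3 220HA peaks. On the X they were 31 SIN3 187HA peaks (4.29%), a difference of 0.51 points from the arms (-0.94 to 2.35), and 75 SIN3 220HA peaks (8.004%), a difference of 2.05 points (0.28 to 4.10).

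A few X sites without any counterpart were among the stronger ones. For SIN3 187HA they were led by chrX:1182911-1183683, 14.9-fold enriched at rank 18 on the X, and chrX:1176403-1176948, 13.1-fold at rank 29, both in the cluster described above. They were followed by chrX:15447437-15448757 at 9.53-fold, chrX:5590426-5591155 at 8.92-fold and chrX:10611998-10612238 at 8.50-fold. For SIN3 220HA the highest was chrX:2072751-2073178 at 14.0-fold, with 227 reads at its summit and rank 57 on the X. After it came chrX:18373617-18374099 at 9.93-fold, chrX:19192616-19192923 at 9.32-fold, chrX:7531034-7532081 at 9.29-fold and chrX:12794794-12795511 at 8.62-fold.

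When filtered peaks of both isoforms were merged wherever they touched, the X had 1014 sites, 46.3 per Mb, against 47.0, 54.1 and 53.9 on 2L, 3L and 3R. Both isoforms were present at 593 of them, 58.5% (55.4 to 61.5), against 69.2%, 67.5% and 68.6% on the same arms. SIN3 187HA alone was present at 104 (10.3%), against 9.63%, 9.58% and 7.18% on 2L, 3L and 3R. SIN3 220HA alone was present at 317 (31.3%), against 21.2%, 22.9% and 24.2% on those arms. Alone here means without a filtered peak of the other isoform. On the X, 73 filtered SIN3 187HA peaks and 242 filtered SIN3 220HA peaks met only a peak that the filter had left out. Of SIN3 187HA peaks at 3-fold or more, the filter left out 37.7% on X against 20.7% on the arms. For SIN3 220HA it left out 21.9% against 7.51%. How far this loss accounts for the X shares was not tested. Sites with both isoforms had a median width of 1143 bp, against 667 bp with SIN3 187HA alone and 628 bp with SIN3 220HA alone. Merging peaks makes a site of several peaks wider by construction, and the arms had the same order. There the medians were 1024 to 1113 bp with both isoforms. With SIN3 187HA alone they were 529.5 to 633.5 bp, and with SIN3 220HA alone 579.5 to 610 bp.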

How the data were processed

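ChIP and input reads from S2 cells were, per the submitters' processing notes, handled with CASAVA 1.8.2, Bowtie2 and MACS2 2.1.0 on dm3; unique reads were kept and duplicates retained. The deposited unfiltered lists give per peak, from the authors' peak caller, a score, the fold enrichment, the -log10 p-value and the -log10 q-value, and the summit. The deposited filtered lists hold peaks kept by reproducibility between replicates at 3-fold enrichment; they were matched by position.

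Fold enrichment was read as pileup plus 1 over background plus 1, and the p-value as Poisson; pileups within 0.05 of a whole number were kept, 1587 of 1588 and 1628 of 1629 on X. Intervals are Clopper-Pearson, Newcombe, Poisson or order-statistic. Python 3.11.15, numpy 2.4.6, pandas 2.3.3, scipy 1.17.1, matplotlib 3.10.9 and bedtools 2.31.1 were used, and the code was tested on simulated data. Arms were measured to their last unfiltered peak. Library depth was not given in the sources used here.

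Named regions were, per isoform, the 5 highest and 5 highest unmet peaks, 3 widest peaks, 5 largest clusters (with ties), 5 longest empty stretches, 3 fullest and 3 emptiest bins, and the 3 most distant summit pairs. Members and rules were chosen with earlier results of these data known. Genes were not assigned, as the annotation held is of another build.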

Additional observations from a re-analysis of the deposited data

How the results depend on the processing

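Of 83 alternative values of 26 results, 33 stayed the same, 43 moved and 7 changed direction. Same meant inside the interval of the value reported or, for counts of clusters and empty stretches, within a fixed ratio of it. All 7 values that changed direction had intervals that include no difference. Paired values below are those of SIN3 187HA and SIN3 220HA. With a 3-fold threshold alone the share of X peaks retained exceeded that of the arms by 2.02 and 0.92 points, and with filtered peaks of at least 5-fold it differed by -2.23 and -4.98 points. The density ratio of X over the arms was 0.978 and 1.03 unfiltered, 1.006 and 1.05 at 3-fold, 0.920 for both at 5-fold, 0.883 for SIN3 187HA at 6-fold and 0.663 for SIN3 220HA at 10-fold, the last thresholds having been added after the data were seen. Spacing on X was 2721 and 2694 bp unfiltered and 11202 and 9075 bp at 5-fold, and 6859 bp from summit to summit for SIN3 220HA. X had 14 and 29 clusters at a 3 kb gap, 139 and 144 unfiltered, and 83 for SIN3 220HA at 10 kb. The cluster share against the arms was -12.5 points for SIN3 187HA at 10 kb, -1.85 and -2.17 points at 3 kb with intervals that include 0, and 2.26 and 2.64 points unfiltered. Empty stretches of 100 kb or more numbered 60 and 61. Median widths were 481.5 and 551 bp on X unfiltered, 908 and 965 bp at 5-fold, and 983 bp for SIN3 220HA in pairs. The shared portion was 85.6% and 66.2% when 1 bp sufficed, 71.2% and 54.9% when 50% of both peaks was required, 88.6% and 77.2% against the other unfiltered list, and 69.1% for SIN3 220HA at 5-fold, and the difference from the arms was -7.13 points for SIN3 187HA at 5-fold, and -2.33 (interval to 0.03) and -6.77 points against the unfiltered list. Median enrichment was 3.98 and 4.20 unfiltered. The background ratio was 0.644 and 0.619 when the p-value was read as at least the pileup, and 0.620 for SIN3 220HA over filtered peaks. Summits within 100 bp were 73.6% in unfiltered pairs and 82.9% at 5-fold in both, and 67.3% lay within 50 bp and 85.7% within 200 bp. The causes were not tested beyond the numbers of peaks each setting leaves.

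No paired analysis was possible because each list was called on joined replicates, and no replicate was left out for the same reason. The X results rest on 1 list per isoform, on a background with a floor that 47.4% and 29.8% of X peaks reach, and on values that keep no depth per sample.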
